A study of Mus musculus with 6 samples.

Results

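The 31 genes described here encode the enzymes that build cholesterol and long-chain fatty acids, together with the SREBP transcription factors and their partners that control both routes. They were picked by symbol, with earlier results of these data known, and all 31 were found among the 55335 genes of a count table from whole mouse lungs at embryonic day 18. The list holds 7 genes of the mevalonate arm, 11 that lead from farnesyl diphosphate to cholesterol, 1 sterol carrier, 5 SREBP regulators and 7 of fatty acid synthesis. The first 18 are called the sterol branch and the last 7 the fatty acid branch. Each of the 31 passed the filter on low counts, so the counts below cover the whole list.

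The Gata4 CKO group (Prx1Cre; Gata4 F/D) had 3 libraries, from embryos with 1 floxed and 1 deleted Gata4 allele. The control group (Prx1Cre; Gata4 F/+) also had 3 libraries, from embryos with 1 floxed and 1 intact allele, and both groups carried the Cre transgene. Prx1Cre is active in the lateral plate mesoderm, the source of diaphragm connective tissue, and the whole lung also holds cells of other origin, its epithelium among them. The study set these groups side by side to look for the mechanism of small lungs in embryos with diaphragm defects. Each library came from total RNA of a whole lung, so fewer cells of a type and less RNA per cell cannot be told apart in any value below.

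Cholesterol is made from acetyl-CoA through mevalonate, isoprenoid diphosphates, squalene and lanosterol. Fatty acids are made from the same acetyl-CoA through malonyl-CoA, and are then lengthened and desaturated. SREBP proteins are held in the endoplasmic reticulum by SCAP and INSIG when sterols are plentiful, and are released to switch on both sets of genes when sterols are scarce. Before birth the alveolar type 2 cells of the lung make fatty acids for surfactant phospholipid, while dividing cells need sterols and fatty acids for membrane.

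Total counts ranged from 15156415 to 30848948 per library. Gata4 itself had 5.72, 5.03 and 3.2 CPM (counts scaled to the library's size) in Gata4 CKO 1, 2 and 3, against 3.92, 3.02 and 2.95 CPM in controls 1, 2 and 3, so the targeted transcript was not lower in the libraries labelled as knockouts. Counts over the whole gene may include exons outside the deleted part, and every direction below rests on the labels. Gata4 CKO 1 stood apart from the other libraries. Splines of transcript length and GC accounted for 31.7% of the variance of its deviations across genes, against 12% and 6.17% in Gata4 CKO 2 and 3 and 2.33% to 2.61% in the controls. It was the highest or the lowest of the 6 libraries for 66.2% of the 17075 genes tested, and among the 31 genes described here it was highest for 11 and lowest for 11 (71%). Log2 fold changes were positive for each of 9 markers of alveolar type 2 cells, which summed to 19748 to 26952 CPM in Gata4 CKO and to 11463 to 19705 CPM in controls. They were negative for each of 10 mitosis markers, which summed to 223 to 365 CPM in Gata4 CKO and to 394 to 885 CPM in controls. They were positive for each of 6 lipofibroblast markers, which summed to 1221 to 1732 CPM in Gata4 CKO and to 1092 to 1251 CPM in controls. Of 8 macrophage markers 6 were positive, and the list summed to 216 to 229 CPM in Gata4 CKO and to 158 to 181 CPM in controls. Control 3 lay nearest to the Gata4 CKO libraries in the first 3 of these sums, where abundant genes weigh most. As a mean over genes of log2(CPM + 0.5), minus the mean over controls, the groups overlapped at control 3: Gata4 CKO 3 had 0.49 and control 3 had 0.52 for alveolar type 2 markers, and Gata4 CKO 1 had -0.74 and control 3 had -0.76 for mitosis markers. Groups were apart for 3 of 9 alveolar type 2, 4 of 10 mitosis, 3 of 6 lipofibroblast and 6 of 8 macrophage markers, against 16.8% of all genes. The part of these cell types in the values of the sterol and fatty acid genes was not tested. Of 8 hepatocyte markers 3 were tested, and the list summed to 2.52 to 7.38 CPM in Gata4 CKO and 2.35 to 32.6 CPM in controls, with the highest sum in control 1. Of 6 brown adipocyte markers 1 was tested, Adrb3, and the list summed to 8.41 to 12.2 CPM in Gata4 CKO and 6.05 to 10.5 CPM in controls. Of its defining markers, singled out after their values were seen, Ucp1 had at most 6 reads in any library and Elovl3 had 0.

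The promoters of 25 of the 31 genes were found in a RefSeq table (GRCm38.p6) that gives 250 bases before and 50 after each annotated start. CCAAT, the letters bound by the factor NF-Y, which is known to act beside SREBP, occurred on either strand in at least 1 window of 21 of the 25 genes. That is 84% of them, against 41.1% of all 27025 genes in the table. The 27025 genes were not limited to those that passed the filter on low counts, as all 31 genes here did. In the sterol branch 14 of 15 genes had CCAAT, and in the fatty acid branch 3 of 5 did. GGGCGG, the core letters of SP1 sites, also occurred in 21 of the 25 genes, 84% against 38.2% of all genes. TCACNCCAC, a form of the sterol regulatory element that SREBP binds, occurred in 1 of the 25, Hmgcs1, and in 1.44% of all genes. These letter matches are a description of the windows, and the motifs were searched on both strands with no overlap between them required or removed. The windows of Hmgcs1 and of 3 genes with lower values in every Gata4 CKO library are printed to show how these motifs sit near the start. That of Fasn is printed as an example from the fatty acid branch and is not typical of it. Fasn had 3 CCAAT, while the windows of Elovl6 and Acaca held no match to any of these motifs. Capitals mark TCACNCCAC and CCAAT on either strand, so that ATTGG is CCAAT on the opposite strand.
Hmgcs1, chr13:119690101-119690400, plus strand: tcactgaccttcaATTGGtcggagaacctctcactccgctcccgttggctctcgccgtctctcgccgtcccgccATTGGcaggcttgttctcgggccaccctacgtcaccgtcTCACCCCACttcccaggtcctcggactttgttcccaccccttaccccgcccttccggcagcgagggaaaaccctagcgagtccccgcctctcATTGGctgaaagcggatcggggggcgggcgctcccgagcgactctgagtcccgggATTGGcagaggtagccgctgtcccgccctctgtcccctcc
Idi1, chr13:8885356-8885655, plus strand: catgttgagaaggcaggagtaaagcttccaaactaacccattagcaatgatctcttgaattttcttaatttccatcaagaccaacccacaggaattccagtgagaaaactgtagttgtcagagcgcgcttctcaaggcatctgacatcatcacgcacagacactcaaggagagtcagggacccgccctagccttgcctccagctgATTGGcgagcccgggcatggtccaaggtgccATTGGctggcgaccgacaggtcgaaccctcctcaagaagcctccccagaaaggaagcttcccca
Cyp51, chr5:4104648-4104947, minus strand: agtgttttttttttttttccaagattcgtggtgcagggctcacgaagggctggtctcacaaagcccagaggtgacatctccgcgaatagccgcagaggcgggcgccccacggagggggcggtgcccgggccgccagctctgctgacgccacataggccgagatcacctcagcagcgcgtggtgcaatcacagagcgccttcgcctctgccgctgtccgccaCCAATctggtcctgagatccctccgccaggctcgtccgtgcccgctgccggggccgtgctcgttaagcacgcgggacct
Hsd17b7, chr1:169969156-169969455, minus strand: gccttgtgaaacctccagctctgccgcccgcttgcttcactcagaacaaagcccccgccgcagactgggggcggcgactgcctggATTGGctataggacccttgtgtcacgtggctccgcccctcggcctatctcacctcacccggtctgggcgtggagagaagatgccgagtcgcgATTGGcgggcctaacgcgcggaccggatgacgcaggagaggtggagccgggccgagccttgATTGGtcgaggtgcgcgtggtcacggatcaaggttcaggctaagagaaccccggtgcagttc
Fasn, chr11:120824498-120824797, minus strand: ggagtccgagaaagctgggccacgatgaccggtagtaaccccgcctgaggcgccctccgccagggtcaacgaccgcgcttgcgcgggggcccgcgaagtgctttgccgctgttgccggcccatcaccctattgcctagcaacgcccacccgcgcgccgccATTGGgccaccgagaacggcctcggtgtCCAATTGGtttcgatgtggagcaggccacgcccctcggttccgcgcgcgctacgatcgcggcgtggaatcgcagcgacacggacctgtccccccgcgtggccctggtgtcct
In Hmgcs1 the capital run TCACCCCAC begins at position -137 from the start, with CCAAT at -237, -176, -45 and 11. Cyp51 has 1 CCAAT, at -29. The opposite-strand CCAAT of Idi1 begin at -45 and -14, and those of Hsd17b7 at -165, -73 and -12. In Fasn 2 of the 3 CCAAT overlap on opposite strands, at -62 and -59.

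The comparison asks whether these genes differ between Gata4 CKO and control lungs. None of the 31 passed the threshold of an adjusted p under 0.05 with the quasi-likelihood test of edgeR, and neither did any of the 17075 genes tested (0%). At an unadjusted p under 0.05 there were 5 of 31 genes, against 8.68% of all genes, and all 5 were lower in Gata4 CKO: Hsd17b7, Stard4, Elovl6, Idi1 and Cyp51. The count in either direction was 1 without control 2, 2 without control 1 and 11 without Gata4 CKO 1, against 2.96%, 3.48% and 23.4% of all genes. With all 6 libraries 4.91% of all genes were lower and 3.77% higher at that level. DESeq2 called 0 of the 31 and 0.881% of all genes, and limma-voom called 0 of both. The groups did not overlap for 8 of the 31 genes, against 16.8% of all genes. All 3 Gata4 CKO libraries lay below all 3 controls for 7 genes, against 9.08% of all genes, and above them for 1 gene, Acat2, against 7.69% of all genes. The 7 are the 5 above with Sqle and Lss. The median log2 fold change was -0.07 over the 31 genes and 0.01 over all genes tested. Of the 31, 19 had negative and 12 positive values.

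**Figure D1:**
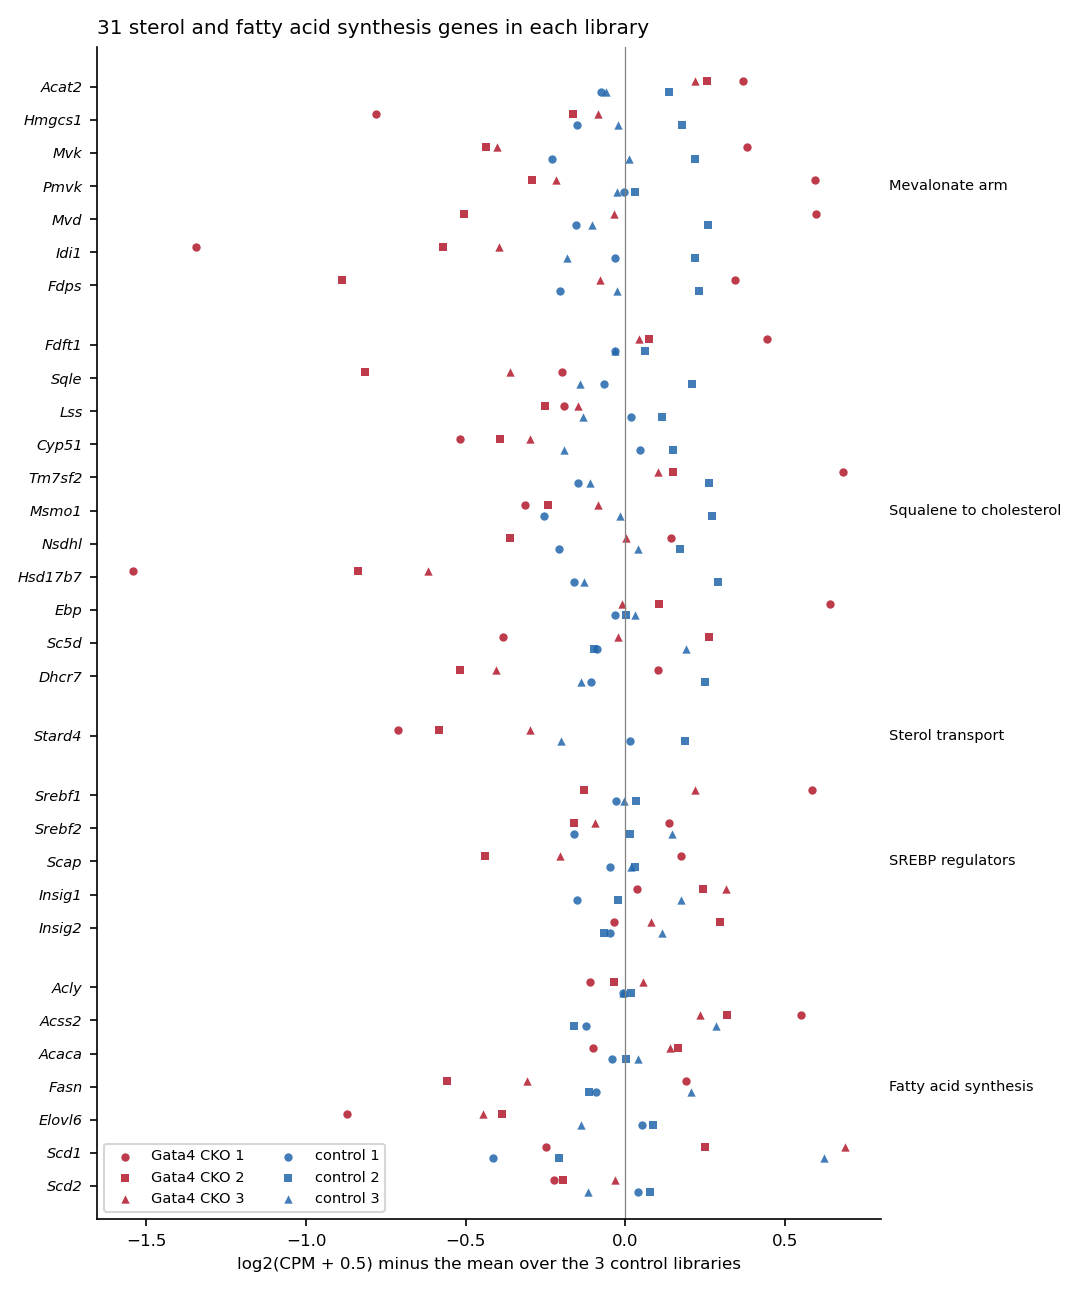
Level of each of the 31 genes in each library, as log2(CPM + 0.5) minus the mean over the 3 control libraries, with Gata4 CKO libraries in red and control libraries in blue and 1 marker shape per replicate number. Hsd17b7, Idi1, Cyp51, Stard4 and Elovl6 have all 3 red points left of all 3 blue ones, while Mvk, Pmvk and Mvd have Gata4 CKO 1 on the right of the controls and Gata4 CKO 2 on their left.

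In the mevalonate arm the genes did not move together. Idi1 isomerises isopentenyl diphosphate to its allylic partner (ENSMUSG00000058258, chromosome 13, 8885501 to 8892451, plus strand, GRCm38, protein-coding). It had 6.35, 11.2 and 12.7 CPM in Gata4 CKO 1, 2 and 3, against 16.5, 19.7 and 14.8 CPM in controls 1, 2 and 3. The groups did not overlap, and Gata4 CKO 1 was the lowest library. The log2 fold change of Idi1 was -0.75 ± 0.27 (SE, n = 3 each, edgeR adjusted p = 0.539). The annotated gene Gm13502 matches 684 of the 3027 bases of an Idi1 transcript at 100% identity, so how reads of that stretch were assigned is uncertain. Gm13502 had 61 reads over the 6 libraries.

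Hmgcs1 encodes the synthase that makes HMG-CoA, the substrate of the rate-limiting step. It had 82.6, 127 and 134 CPM in Gata4 CKO 1, 2 and 3, against 128, 161 and 140 CPM in controls. Gata4 CKO 1 was far below the rest, the other Gata4 CKO libraries lay in or beside the range of the controls, and the log2 fold change was -0.32 ± 0.21 (SE, with an edgeR adjusted p of 0.703), or -0.12 ± 0.11 without Gata4 CKO 1. Acat2, the cytosolic thiolase that joins acetyl-CoA units, went the other way. It had 34.2, 31.6 and 30.8 CPM in Gata4 CKO, against 25, 29.1 and 25.3 CPM in controls, without overlap, and its log2 fold change was 0.28 ± 0.14 (SE, with an edgeR adjusted p of 0.62). Its transcript matches the paralogue Acat3 over 1477 bases at 97.7% identity and Tcp1, on the opposite strand, over 445 bases, so the Acat2 count is uncertain.

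Mvk, Pmvk and Mvd phosphorylate mevalonate in turn and then decarboxylate it, and their values split the Gata4 CKO group. Mvk had 27, 15.1 and 15.5 CPM in Gata4 CKO 1, 2 and 3, against 17.5, 24.1 and 20.8 CPM in controls. Pmvk had 30.4, 16.2 and 17.1 CPM in Gata4 CKO, against 19.9, 20.4 and 19.6 CPM in controls. Mvd had 22.9, 10.4 and 14.6 CPM in Gata4 CKO, against 13.4, 18 and 13.9 CPM in controls. For all 3 genes Gata4 CKO 1 was the highest of the 6 libraries and Gata4 CKO 2 the lowest. Their log2 fold changes were -0.12, 0.09 and 0.08 over 6 libraries, and -0.44, -0.26 and -0.26 without Gata4 CKO 1.

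Fdps, the farnesyl diphosphate synthase, had 55, 13 and 57 reads in Gata4 CKO 1, 2 and 3 and 36, 51 and 60 reads in controls. At 0.43 CPM per kb of exon in Gata4 CKO and 0.483 CPM per kb in controls it was the lowest gene of the list on that scale. Another 5 annotated genes match 605 to 1066 bases of its transcript of 1382 bases at 91.1% identity or more, and Gm43738 covers 1124 bases of its exons on the same strand. The treatment of such reads in the authors' counting is not given here, so the Fdps count is uncertain.

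From squalene to cholesterol, 4 of 11 genes had lower values in every Gata4 CKO library than in every control, against 9.08% of all genes. Hsd17b7, a ketosteroid reductase of sterol demethylation (ENSMUSG00000026675, chromosome 1, 169949535 to 169969241, minus strand, GRCm38, protein-coding), stood furthest apart. Its values were 4.64, 7.88 and 9.25 CPM in Gata4 CKO 1, 2 and 3, against 12.9, 17.8 and 13.2 CPM in controls. The mean was 7.25 ± 2.36 CPM in Gata4 CKO and 14.6 ± 2.75 CPM in controls (SD, n = 3 each). On the log2 scale Hsd17b7 differed by -1.01 ± 0.28 (SE, unadjusted p = 0.00717, adjusted p in edgeR = 0.529, DESeq2 adjusted p = 0.0798).

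Cyp51 removes the methyl group at the first demethylation step of lanosterol (ENSMUSG00000001467, chromosome 5, 4081145 to 4104746, minus strand, GRCm38). It had 18.6, 20.3 and 21.7 CPM in Gata4 CKO, against 27.7, 29.8 and 23.4 CPM in controls, and its log2 fold change was -0.42 ± 0.16 (SE, with an edgeR adjusted p of 0.546). The Gata4 CKO values lay close together and below the lowest control, control 3. Akap9 overlaps 166 bases of the Cyp51 exons on the opposite strand. Sqle, the squalene epoxidase and a rate-limiting enzyme, had 29.3, 18.9 and 26.1 CPM in Gata4 CKO, against 32.1, 39 and 30.5 CPM in controls. Only a small gap lay between Gata4 CKO 1 and control 3, the nearest libraries of the groups for Sqle, and the log2 fold change was -0.45 ± 0.2 (SE, with an edgeR adjusted p of 0.576), or -0.28 without Gata4 CKO 2. Lss, which closes the squalene rings into lanosterol, had 31.9, 30.6 and 32.9 CPM in Gata4 CKO, against 37, 39.6 and 33.3 CPM in controls, a log2 fold change of -0.2 ± 0.14 (SE, with an edgeR adjusted p of 0.709). The gap between the highest Gata4 CKO library and control 3 was small for Lss.

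The remaining 7 genes of that stretch had overlapping groups. Fdft1, the squalene synthase, had 58, 44.8 and 43.8 CPM in Gata4 CKO, against 41.6, 44.4 and 41.6 CPM in controls, and 774 bases of its exons overlap Ctsb on the opposite strand. The annotated gene Gm6781, with 76 reads over all libraries, matches 1249 bases of an Fdft1 transcript at 97.4% identity, so the Fdft1 count is uncertain. Dhcr7, a reductase of the last steps, had 16.4, 10.5 and 11.4 CPM in Gata4 CKO, against 14.1, 18.2 and 13.8 CPM in controls. Gata4 CKO 2 and 3 were below the controls for Dhcr7, and Gata4 CKO 1 was within them. Ebp, the sterol isomerase, had 33, 22.6 and 20.8 CPM in Gata4 CKO, against 20.5, 21 and 21.4 CPM in controls, with Gata4 CKO 1 alone far above. Tm7sf2, a sterol reductase, had 14.5, 9.86 and 9.54 CPM in Gata4 CKO, against 7.93, 10.7 and 8.16 CPM in controls. Its log2 fold change of 0.34 ± 0.23 was 0.12 ± 0.19 without Gata4 CKO 1 (SE), and those of Fdft1 and Ebp were 0.2 and 0.28, or 0.06 and 0.05 without that library. Msmo1, a methyl sterol oxidase, had 18.6, 19.6 and 21.9 CPM in Gata4 CKO and 19.4, 28.2 and 23 CPM in controls, a log2 fold change of -0.23, or -0.09 without control 2. Tm7sf2 shares 532 exon bases with Vps51 on the same strand. Nsdhl, a sterol decarboxylating dehydrogenase, had 19.9, 13.9 and 18 CPM in Gata4 CKO and 15.5, 20.3 and 18.5 CPM in controls. Sc5d, the desaturase late in the pathway, had 25.4, 40 and 32.7 CPM in Gata4 CKO and 31.2, 31 and 38 CPM in controls.

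Stard4 carries cholesterol between membranes and is a known SREBP target. It had 117, 128 and 156 CPM in Gata4 CKO 1, 2 and 3, against 194, 219 and 167 CPM in controls. Every Gata4 CKO library was below every control, and the means were 134 ± 19.8 CPM in Gata4 CKO and 193 ± 25.7 CPM in controls (SD, n = 3 each). On the log2 scale Stard4 differed by -0.53 ± 0.17 (SE, unadjusted p = 0.0155, edgeR adjusted p = 0.529).

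With all 6 libraries 0 of the 5 SREBP regulators had groups that did not overlap, against 16.8% of all genes. Srebf1 was apart and higher with length and GC trends removed, where 19.2% of all genes were apart. Without Gata4 CKO 1, Scap was apart and lower and Insig1 apart and higher, where 43.5% of all genes were apart. Srebf1, the SREBP gene tied mainly to fatty acid synthesis, had 179, 109 and 139 CPM in Gata4 CKO 1, 2 and 3, against 117, 122 and 119 CPM in controls. The controls were close to each other and the Gata4 CKO libraries lay on both sides of them, with a log2 fold change of 0.25 over all 6 libraries and 0.06 without Gata4 CKO 1. Srebf2, the SREBP gene tied mainly to sterol synthesis, had 160, 130 and 136 CPM in Gata4 CKO and 130, 147 and 161 CPM in controls, a log2 fold change of -0.04 ± 0.15 (SE, with an edgeR adjusted p of 0.959). Insig1, which retains SREBP and is itself an SREBP target, had 86.5, 99.9 and 105 CPM in Gata4 CKO, against 75.9, 83.1 and 95.2 CPM in controls. Its log2 fold change of 0.2 ± 0.15 had the opposite sign to those of Stard4, Idi1 and Cyp51. Insig2, the related anchor, had 45.4, 57.3 and 49.3 CPM in Gata4 CKO and 45, 44.5 and 50.5 CPM in controls. Scap, the escort of SREBP, had 45.7, 29.7 and 35 CPM in Gata4 CKO, against 39.1, 41.3 and 41 CPM in controls, again with Gata4 CKO 1 above and the other 2 below.

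In the fatty acid branch 1 of 7 genes (14.3%) had groups that did not overlap, against 16.8% of all genes. Elovl6, which lengthens palmitate (ENSMUSG00000041220, chromosome 3, 129532355 to 129638495, plus strand, GRCm38), had 8.35, 11.9 and 11.4 CPM in Gata4 CKO, against 16.3, 16.7 and 14.2 CPM in controls. Its mean was 10.5 ± 1.92 CPM in Gata4 CKO and 15.8 ± 1.34 CPM in controls (SD, n = 3 each), and the fitted log2 fold change stood at -0.58 ± 0.19 (SE, unadjusted p = 0.0166, edgeR adjusted p = 0.529). Fasn, the fatty acid synthase, had 639, 380 and 452 CPM in Gata4 CKO 1, 2 and 3, against 525, 517 and 646 CPM in controls. Gata4 CKO 2 and 3 were the lowest libraries for Fasn, while Gata4 CKO 1 stood near the top. Its log2 fold change was -0.2 ± 0.23 (SE, with an edgeR adjusted p of 0.827), and -0.43 ± 0.13 without Gata4 CKO 1 (unadjusted p = 0.0103, edgeR adjusted p = 0.116).

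Scd1 and Scd2 encode stearoyl-CoA desaturases, which place a double bond in saturated fatty acids. Scd1 had 575, 812 and 1102 CPM in Gata4 CKO 1, 2 and 3, against 512, 592 and 1052 CPM in controls 1, 2 and 3. Gata4 CKO 3 and control 3 were its highest libraries, so the spread lay within the groups, with 830 ± 264 CPM in Gata4 CKO and 719 ± 291 CPM in controls (SD, n = 3 each). Scd2 had 2192, 2234 and 2501 CPM in Gata4 CKO and 2632, 2701 and 2359 CPM in controls. The transcripts of these paralogues match over 623 bases at 95.5% identity, so some reads could be shared. Acss2, which makes acetyl-CoA from acetate, had 75.9, 64.6 and 60.8 CPM in Gata4 CKO, against 47.4, 46.2 and 63 CPM in controls. Control 3 lay among the Gata4 CKO values of Acss2, and the log2 fold change was 0.36 ± 0.17 (SE, with an edgeR adjusted p of 0.61). Acly, which makes cytosolic acetyl-CoA from citrate and so feeds both branches, had 246, 259 and 276 CPM in Gata4 CKO and 264, 269 and 264 CPM in controls. Acaca, the acetyl-CoA carboxylase that commits carbon to fatty acids, had 99.7, 120 and 118 CPM in Gata4 CKO and 104, 107 and 110 CPM in controls. The annotated gene Gm5182 matches 6118 of the 9513 bases of an Acaca transcript at 99.2% identity, so the Acaca count is uncertain. Gm5182 had 78 reads over all libraries. The log2 fold changes of Acly and Acaca were -0.03 ± 0.14 and 0.08 ± 0.14 (SE, with an edgeR adjusted p of 0.965 and 0.897).

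Per kb of annotated exon, the fatty acid genes spanned the widest range of levels. Scd2 had 423 CPM per kb in Gata4 CKO and 469 CPM per kb in controls, the highest level of the 31 genes, and Scd1 had 170 CPM per kb in Gata4 CKO and 147 CPM per kb in controls. Acly stood at 49.3 CPM per kb in Gata4 CKO and 50.4 CPM per kb in controls, and Fasn at 44.8 CPM per kb in Gata4 CKO and 51.4 CPM per kb in controls. Elovl6 was near the bottom, at 1.64 CPM per kb in Gata4 CKO and 2.45 CPM per kb in controls. In the sterol branch Hmgcs1 was highest, at 25 CPM per kb in Gata4 CKO and 31.1 CPM per kb in controls, and apart from Fdps the lowest level in Gata4 CKO was that of Hsd17b7, 1.42 CPM per kb, against 2.87 CPM per kb in controls. Stard4 exceeded every enzyme of cholesterol synthesis in controls on this scale, at 23.9 CPM per kb in Gata4 CKO and 34.6 CPM per kb in controls. Exon lengths are the union of annotated exons, which may be longer than the transcripts made in lung.

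**Figure D2:**
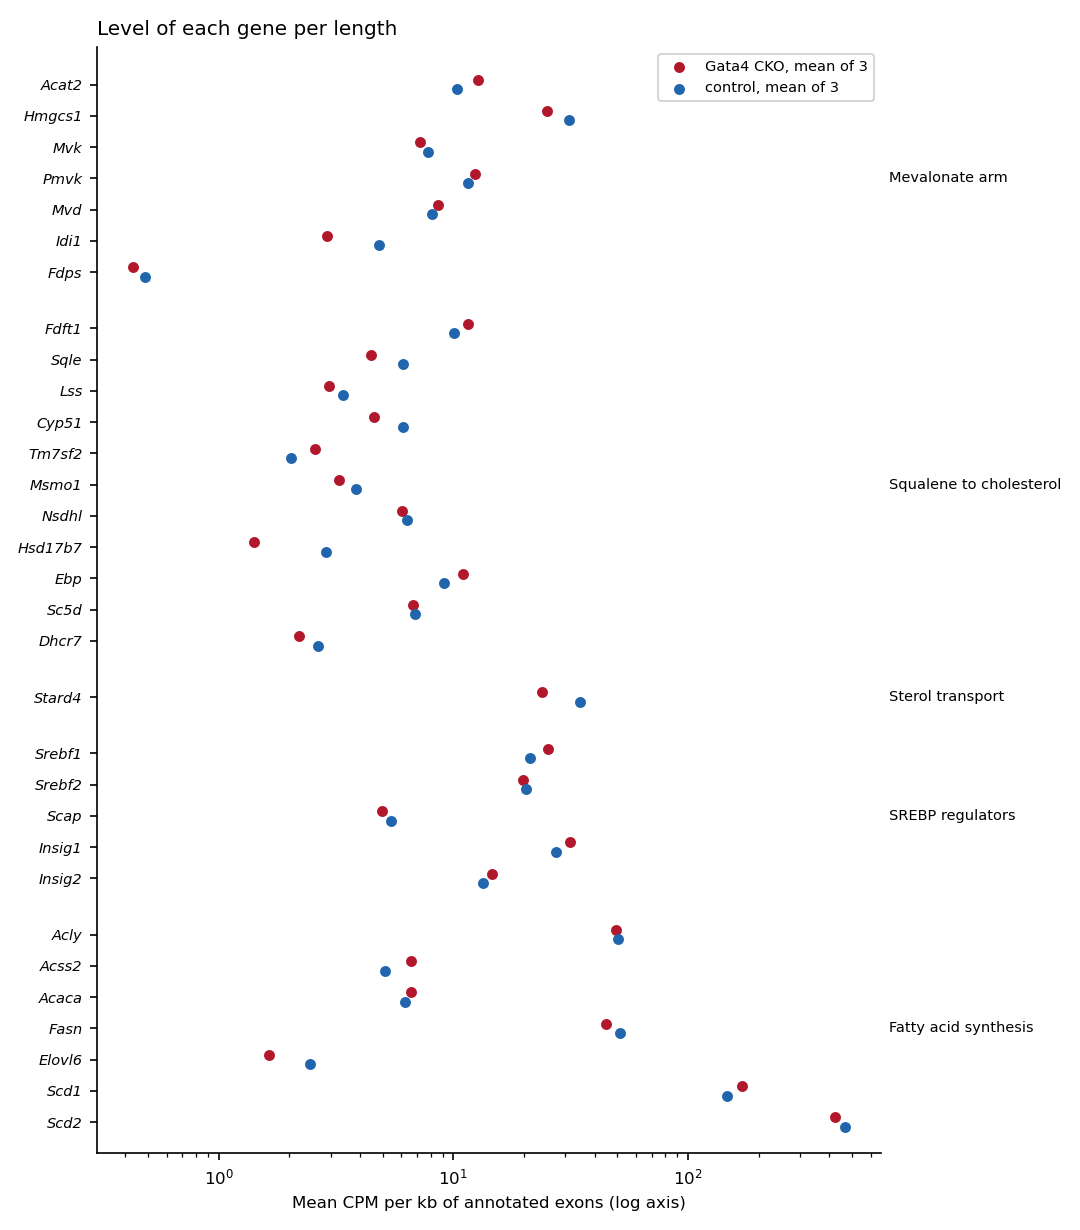
Mean CPM per kb of annotated exon for each gene on a log axis, with the mean of 3 Gata4 CKO libraries in red and of 3 control libraries in blue. Scd2 is highest, at 423 CPM per kb in Gata4 CKO, and Fdps lowest, at 0.43 CPM per kb in Gata4 CKO.

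The 2 branches were set against each other within each library. A branch value is the mean over its genes of log2(CPM + 0.5), minus the mean over the controls. The sterol branch stood at -0.05, -0.3 and -0.16 in Gata4 CKO 1, 2 and 3, against -0.11, 0.16 and -0.06 in controls 1, 2 and 3. Gata4 CKO 1 was thus above 2 of the controls, and control 2 was the highest library. The fatty acid branch stood at -0.12, -0.06 and 0.05 in Gata4 CKO, against -0.08, -0.04 and 0.13 in controls, with Gata4 CKO values within or just below the range of the controls. The sterol minus fatty acid difference was 0.06, -0.24 and -0.2 in Gata4 CKO and -0.02, 0.21 and -0.19 in controls. The means of that difference were -0.13 ± 0.16 in Gata4 CKO and 0 ± 0.2 in controls (SD, n = 3 each). In these values the branches did not part by more than the spread between libraries. With length and GC trends removed the difference was -0.16, -0.25 and -0.22 in Gata4 CKO. In controls it was then -0.03, 0.2 and -0.17, so control 3 lay among the Gata4 CKO values. Averaged over log2 fold changes of the main fit, the sterol branch had -0.15 and the fatty acid branch -0.05. Without control 2 these averages were -0.06 and -0.07, and without Gata4 CKO 1 they were -0.23 and -0.02. Summed over its 18 genes, the sterol branch made up 476, 452 and 475 CPM in Gata4 CKO, against 481, 575 and 501 CPM in controls. Hmgcs1 was the largest part of these sums. Without it they were 394, 324 and 341 CPM in Gata4 CKO, against 354, 414 and 361 CPM in controls, so the groups overlapped. The 7 fatty acid genes summed to 3837, 3882 and 4520 CPM in Gata4 CKO and to 4101, 4249 and 4509 CPM in controls, most of it Scd2.

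**Figure D3:**
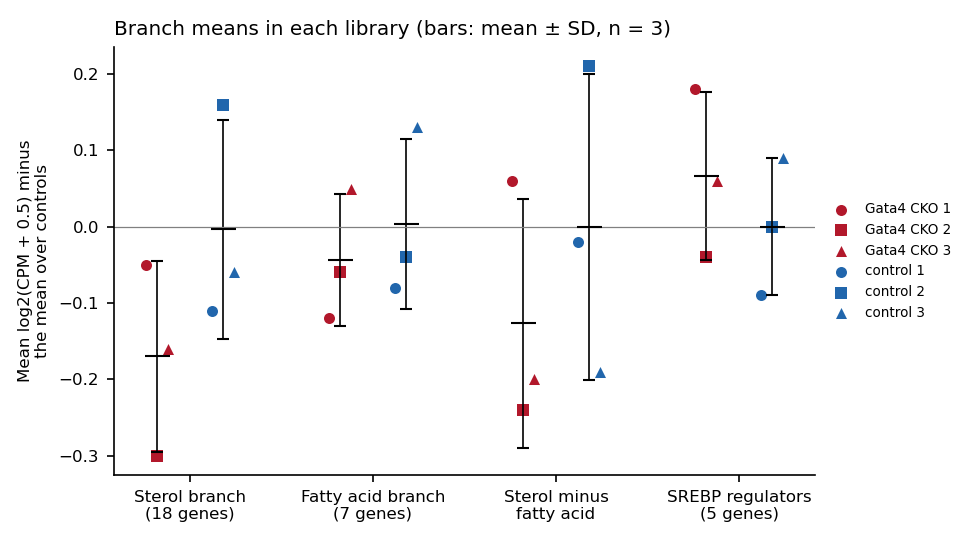
Mean log2(CPM + 0.5) of each branch per library, minus the mean over controls, with the sterol minus fatty acid difference and the SREBP regulators beside them; Gata4 CKO is in red on the left and control in blue on the right of each pair, and bars are mean ± SD of 3 libraries. In the sterol branch Gata4 CKO 2 is lowest at -0.3 and control 2 highest at 0.16, and in every column the groups overlap.

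Gata4 CKO 1 differed from the other Gata4 CKO libraries along GC content. Across the 31 genes the log2 difference between Gata4 CKO 1 and the mean of Gata4 CKO 2 and 3 had a Pearson r of 0.79 with GC content, and across 17063 genes it had an r of 0.51. Genes are not independent replicates, all points share these 3 libraries, and the r is a description. Of 15 sterol and fatty acid genes with at least 50% GC, 13 were higher in Gata4 CKO 1, and of 16 genes under 50% GC, 4 were. Over all genes the shares were 71.6% and 30%. Idi1, with 41.1% GC, had a difference of -0.86, and Hmgcs1, with 43.6% GC, had -0.66. Mvd, with 59.2% GC, had 0.87, and Pmvk, with 55.5% GC, had 0.85. Sqle and Ebp, both under 50% GC, were higher in Gata4 CKO 1 by 0.39 and 0.59, and Scd1, at 49.1% GC, was lower by a difference of -0.72.

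**Figure D4:**
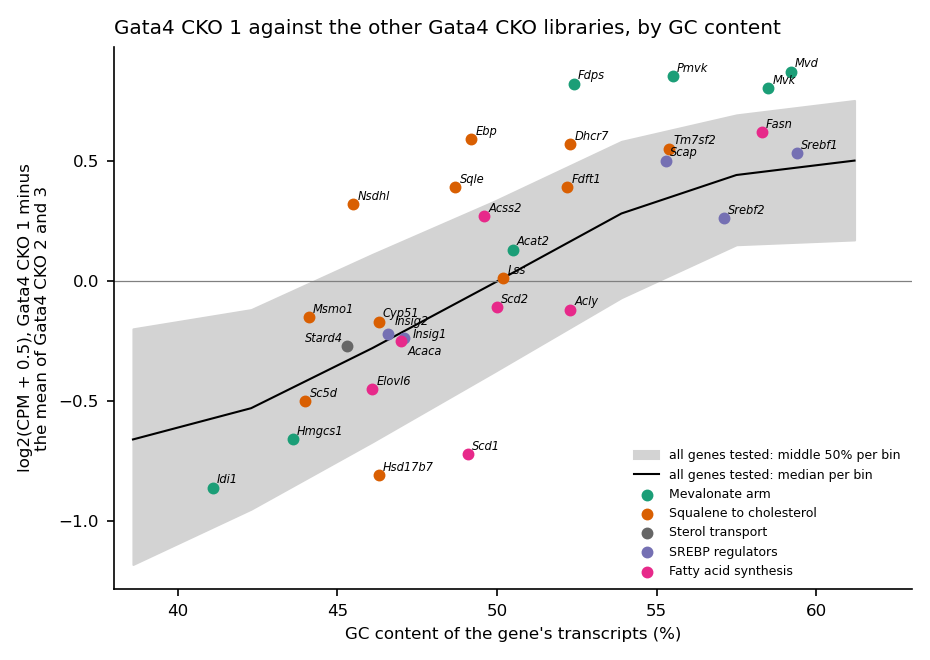
Difference between Gata4 CKO 1 and the mean of Gata4 CKO 2 and 3 in log2(CPM + 0.5) against the GC content of the transcripts in percent, with 1 point for each of the 31 genes, coloured by role. The black line is the median and the grey band the middle 50% of all genes in bins of GC content. The 31 genes range from -0.86 for Idi1 to 0.87 for Mvd. Some lie outside the band, such as Scd1 (-0.72) below it and Ebp (0.59) and Sqle (0.39) above it.

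Gata4 CKO 2 and 3 could also be compared with the controls without Gata4 CKO 1. In that fit 12 of the 31 genes had all Gata4 CKO values below the controls, against 21.6% of all genes, and 3 had them above, against 21.9% of all genes. The 12 were the 7 named before with Mvk, Pmvk, Dhcr7, Scap and Fasn, and the 3 were Acat2, Insig1 and Acaca. At an unadjusted p under 0.05, 10 genes were lower and 1 was higher, against 12.1% and 11.2% of all genes. edgeR called 0 of the 31 and 0.656% of all genes, and the smallest adjusted p among the 31 was 0.088 for Hsd17b7. DESeq2 on the same 5 libraries called 4 of the 31 and 11.4% of all genes. These 4 were Sqle (-0.58), Hsd17b7 (-0.76), Stard4 (-0.44) and Fasn (-0.44), given as log2 fold changes, with DESeq2 adjusted p-values of 0.0351, 0.0129, 0.0403 and 0.0317. Without Gata4 CKO 1, no number in the authors' column labels (4229, 4503 or 4723) occurs in both groups, so that number and the group cannot be told apart there. Among the 3 libraries that share the number 4229, Gata4 CKO 1 and controls 1 and 2, the log2 differences were -1.61 for Hsd17b7, -1.43 for Idi1, -0.94 for Elovl6, -0.81 for Stard4 and -0.61 for Cyp51. The sign was the other way for Fasn, at 0.29. All these differences rest on Gata4 CKO 1, the library with the largest share of length and GC trend. The genes named as lower had 41.1% to 46.3% GC and Fasn had 58.3%. The part of GC content in these differences was not tested.

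With the length and GC trends taken out of every library, 5 genes kept all 3 Gata4 CKO libraries below all 3 controls, against 9.08% of all genes. These were Idi1 (-0.75 ± 0.18), Cyp51 (-0.38 ± 0.13), Hsd17b7 (-0.98 ± 0.22), Stard4 (-0.46 ± 0.14) and Elovl6 (-0.5 ± 0.14), as log2 fold change ± SE. These 5 genes were also apart and lower with all 6 libraries, which all but fixed that outcome in the fit without Gata4 CKO 1. The 3 fits share libraries and are not independent. With the trends removed, Sqle and Lss overlapped. Acat2, Fdft1 and Srebf1 were apart and higher, against 10.2% of all genes. edgeR again called 0 of the 31 genes and 0% of all genes, with an adjusted p of 0.323 for Idi1, Hsd17b7, Stard4 and Elovl6.

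**Figure D5:**
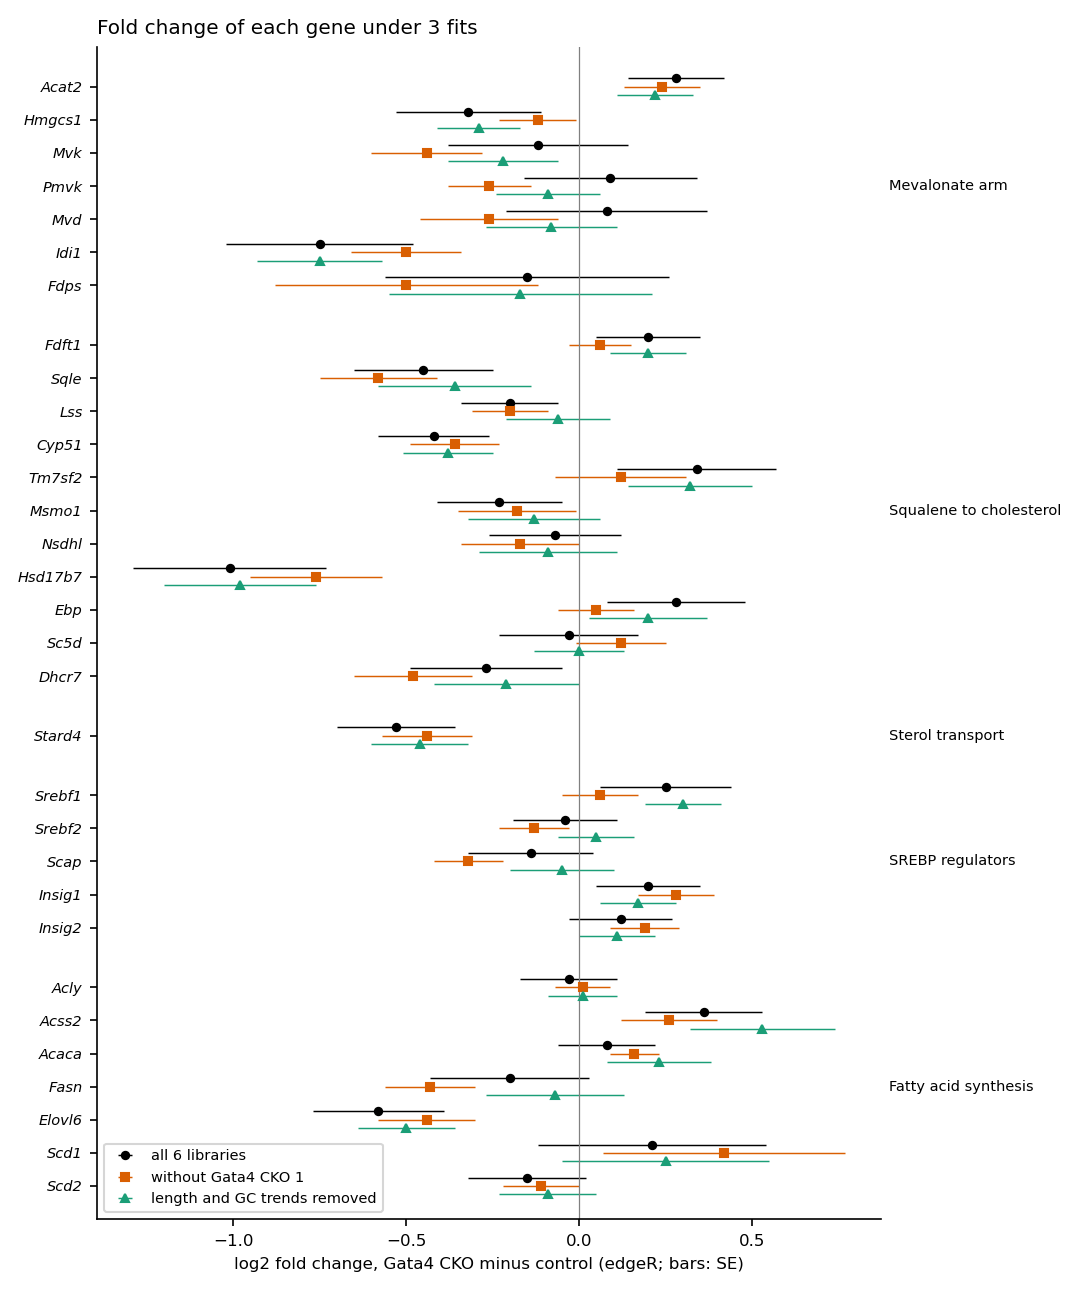
Log2 fold change of each gene, Gata4 CKO minus control, with its SE, from all 6 libraries (black), without Gata4 CKO 1 (orange) and with length and GC trends removed (green). Hsd17b7 stays furthest left, between -1.01 and -0.76, while Mvk, Pmvk, Mvd and Fasn shift left when Gata4 CKO 1 is left out.

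Genes next to these in the pathway gave a mixed picture. Of 10 other genes of sterol synthesis, uptake and SREBP processing, 9 were tested, with 5 negative and 4 positive log2 fold changes and at an unadjusted p under 0.05 there were 1 higher and 2 lower, against 3.77% and 4.91% of all genes. The higher one was Npc2, which moves cholesterol out of lysosomes, at 1540 ± 269 CPM in Gata4 CKO and 1090 ± 126 CPM in controls (SD, n = 3 each), and a fitted log2 fold change of 0.5 ± 0.19 (SE, with an edgeR adjusted p of 0.546). All 6 genes of the LXR receptors, sterol efflux and esterification had positive values, with a median of 0.27 against 0.01 over all genes. Mylip, a ligase that degrades lipoprotein receptors and is an LXR target, had a log2 fold change of 0.45 ± 0.13 (SE, unadjusted p = 0.00913, edgeR adjusted p = 0.529). Of 12 other fatty acid genes 10 were positive, with a median of 0.08, and Mlxipl, which encodes the carbohydrate-responsive factor ChREBP, had 0.76 ± 0.27 (SE, with an edgeR adjusted p of 0.529). None of these lists held a gene that passed in edgeR or DESeq2.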

How the data were processed

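Whole lungs of 6 mouse embryos were profiled by RNA-seq, with 1 library each. Per the labels' protocols, libraries were stranded mRNA libraries. The deposited table holds unscaled whole-number counts of reads for Ensembl genes, per its file headers and values. STAR 2.7.10a, featureCounts 2.0.1 and DESeq2 1.36.0 are listed in the submitters' processing notes beside GRCm38 and mm10, without their roles; no annotation, strand setting or filter is given here. Labels call the libraries biological replicates.

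All 55335 genes entered 1 fit of Gata4 CKO against control with edgeR 4.0.16 under R 4.3.3. The filter filterByExpr, at a smallest count of 10 and a total of 15, left 17075 genes, counts were scaled by TMM, and the quasi-likelihood test was two-sided with Benjamini-Hochberg adjustment over all genes (threshold 0.05). With 3 against 3 an exact permutation test cannot go below p = 0.1, so none is given. CPM use TMM-scaled library sizes. SE is the log2 fold change over the square root of F. GC content, lengths and positions are from GENCODE M21 (GRCm38), and similar transcripts were found with BLAST 2.17.0. Trends were removed with splines of 5 degrees of freedom for log length and GC. DESeq2 1.42.0 and limma 3.58.1 were alternatives, and the pipeline was tested on simulated data. All 31 genes may be named; of each other list at most 3 with the smallest p, and some of these are given by count only. The other lists were likewise chosen with earlier results of these data known, and no test of a list as a whole was made. Of the other lists, 2 entries had no row in the table under the symbol used. The fit without length and GC trends, DESeq2 without Gata4 CKO 1 and values within 1 label number were chosen after seeing the data, as was the sum without Hmgcs1.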

Additional observations from a re-analysis of the deposited data

How the results depend on the processing

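Over 19 other settings no gene of the 31 passed in edgeR except with the label number as a term, where the comparison rests on Gata4 CKO 1 against controls 1 and 2. That setting called 7308 genes (42.8% of all genes) and 13 of the 31. It had 16 of the 31 at an unadjusted p under 0.05 (50.8% of all genes) and a median of 0.06. Quality weights in limma-voom called 4375 genes (25.6% of all genes) and 11 of the 31. The weights were 0.0884 for Gata4 CKO 1 and 0.458 for control 3, against 1.12 to 3.55 for the other libraries. At an unadjusted p under 0.05 there were then 17 of the 31 (39.8% of all genes), and the fatty acid mean was 0.07. DESeq2 called 127 genes (0.881%), and without Gata4 CKO 1 it called 1691 genes (11.4%) and 4 of the 31. DESeq2 without Gata4 CKO 1 had 11 of the 31 at an unadjusted p under 0.05 (22% of all genes) and a median of -0.17. With length and GC trends removed 8 were at an unadjusted p under 0.05 (12.7% of all genes), and within label number 4229 the median was 0.06. Leaving out 1 library at a time gave 0 to 115 genes called (115 without Gata4 CKO 1), 0 of the 31 called, 1 to 11 at an unadjusted p under 0.05 (1 without control 2, 2 without control 1, 11 without Gata4 CKO 1), 9 to 15 genes whose groups did not overlap (23.7% of all genes at 9, without Gata4 CKO 2, and 43.5% at 15, without Gata4 CKO 1), medians of -0.17 to 0.03, sterol means of -0.23 to -0.06, fatty acid means of -0.09 to 0.03, and branch differences of -0.22 to 0.01. The cause of these shifts was not tested.

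Of 589 values of single genes, 46 changed sign, in 13 genes. With quality weights the log2 fold changes were Pmvk -0.23, Mvd -0.09, Nsdhl 0.01, Sc5d 0.09 and Acly 0.03. With the label number as a term the log2 fold changes were Mvk 0.38, Fdps 0.38, Nsdhl 0.15, Dhcr7 0.02, Srebf2 0.21, Scap 0.19, Acaca -0.08 and Fasn 0.29. With length and GC trends removed the log2 fold changes were Pmvk -0.09, Mvd -0.08, Sc5d 0, Srebf2 0.05 and Acly 0.01. In DESeq2 without Gata4 CKO 1 the log2 fold changes were Pmvk -0.26, Mvd -0.26, Sc5d 0.12 and Acly 0.01. Within label number 4229 the log2 fold changes were Mvk 0.39, Fdps 0.33, Nsdhl 0.16, Dhcr7 0.03, Srebf2 0.21, Scap 0.18, Acaca -0.08 and Fasn 0.29. Leave-one-out ranges of genes that changed sign were -0.26 to 0.26 for Pmvk, -0.26 to 0.32 for Mvd, -0.19 to 0.12 for Sc5d, -0.07 to 0.01 for Acly, -0.44 to 0.04 for Mvk, -0.5 to 0.18 for Fdps, -0.17 to 0.08 for Nsdhl, -0.13 to 0.04 for Srebf2, -0.32 to 0.01 for Scap and -0.05 to 0.59 for Scd1. In none of the settings run did 18 of the 31 genes change sign. Idi1, Hsd17b7, Cyp51, Stard4, Elovl6, Sqle, Lss and Acat2 are among them. Their groups did not overlap with all 6 libraries, so leaving out 1 library could hardly reverse their sign. With the replicate number as a block, edgeR called 0 genes and 4 of the 31 were at an unadjusted p under 0.05 (6.98% of all genes). Same-numbered libraries had correlations of 0.11, -0.32 and 0.1 between their deviations from the group means, so the numbers were not taken as pairs. Depth limits Fdps most, with 13 to 60 reads per library.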

Other observations

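Lipid genes outside sterol and fatty acid synthesis were read in the same libraries. Of 10 genes of surfactant phospholipid synthesis 9 were tested, and 8 had positive log2 fold changes, with a median of 0.21 against 0.01 over all genes. Pcyt1b, a form of the enzyme that activates choline phosphate, had 0.59 ± 0.24 (SE, with an edgeR adjusted p of 0.558), and Cept1, which completes phosphatidylcholine, had 0.25 ± 0.13 (SE, with an edgeR adjusted p of 0.622). Of the 9 genes 2 (22.2%) had groups that did not overlap, against 16.8% of all genes. Of 9 genes of fatty acid oxidation 7 were positive, with a median of 0.06, none had groups apart, and Acadm, which starts the oxidation of medium-chain fatty acids, had 0.18 ± 0.15 (SE, with an edgeR adjusted p of 0.761). Lpl, the lipoprotein lipase of the lipofibroblast list, had 0.77 ± 0.24 (SE, with an edgeR adjusted p of 0.529).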
